A study of Mus musculus with 208 samples.

Results

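Bdnf, Ntf3, Ntrk2, Ntrk3 and Ngfr, the genes of 2 neurotrophins and 3 of their receptors, were followed across the brains of adult mice that had been exposed to morphine around birth. They are 5 of the 46403 genes in the deposited count tables and were taken by symbol as a family, with earlier results of these data known. All 5 symbols were found in each of the 4 regional tables. RNA was sequenced from NeuN+ nuclei, sorted from punches of hypothalamus, hippocampus, prefrontal cortex (PFC) and striatum, with 1 library for each animal and region. There were 208 libraries from 71 animals. The comparisons ask how perinatal morphine, an adult immune challenge and the 2 together changed neuronal gene expression.

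All animals were wild type C57BL/6NTac mice of both sexes that were raised by drug-naive foster dams and killed as adults, 2 h after an injection. SAL-SAL animals had perinatal saline and adult saline. MOR-SAL animals had perinatal morphine and adult saline, SAL-LPS animals had perinatal saline and adult lipopolysaccharide (LPS), and MOR-LPS animals had morphine and then LPS. Morphine reached the dam by a minipump at 10 mg/kg/day and the pup by 2 injections a day of 10 mg/kg until postnatal day 14. The model gives exposure before and after birth together, so the periods cannot be told apart. SAL-SAL held 11 libraries in hypothalamus, 13 in hippocampus, 10 in PFC and 13 in striatum, and MOR-SAL held 14, 12, 12 and 8. SAL-LPS held 12, 14, 10 and 15, and MOR-LPS 14, 16, 16 and 18.

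Neurotrophins are secreted growth factors that keep neurons alive during development and tune synapses in the adult. BDNF acts mainly through the receptor tyrosine kinase TrkB, encoded by Ntrk2, and NT-3, encoded by Ntf3, acts mainly through TrkC, encoded by Ntrk3. The p75 receptor, encoded by Ngfr, binds all mature neurotrophins and their precursors, and in the adult forebrain it is best known from cholinergic neurons. Neuronal activity induces Bdnf from several alternative promoters, and TrkB and TrkC are also made as truncated forms without a kinase domain.

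Several libraries stood apart before any member was examined. Total counts ran from 7673 to 35077048 in hypothalamus, 227025 to 24071488 in hippocampus, 3056648 to 21988203 in PFC and 5954700 to 92945090 in striatum. A total below 0.5 of the region's median was found in 3, 2, 3 and 0 libraries of these regions, called low-depth libraries below. Summed markers of medium spiny neurons, the projection neurons of the striatum, exceeded the region's own markers in 39 of 48 PFC libraries and 7 of 55 hippocampal libraries, 5 of them SAL-LPS. Cortical markers exceeded medium spiny neuron markers in 9 of 54 striatal libraries. Hypothalamic markers (Hcrt, Pmch, Avp, Oxt, Pomc, Agrp and Sim1) summed to a median of 48.3 CPM, the read count scaled to the library total, in hypothalamus and 5.86 to 9.58 elsewhere. Agrp went the other way, with a median of 2.84 CPM in hypothalamus and 4.78, 7.70 and 5.39 in hippocampus, PFC and striatum. Y-linked genes went against the labelled sex in 3, 4, 2 and 0 libraries of hypothalamus, hippocampus, PFC and striatum. In bulk nuclei, fewer cells of a type and less RNA per cell cannot be told apart, and this holds for every level given here.

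Bdnf lies on chromosome 2 at chr2:109674700-109727007, plus strand, in GENCODE M21 on mm10, with 11 transcripts and 9 merged exon segments. RefSeq gives it 7 transcription starts on GRCm38.p6. Gene-level counts add up all of them, so the start used cannot be read from these data. Letters of the cAMP response element type were searched because Bdnf was compared with activity-induced genes. TCACGTNA, read on both strands, was present in 2 of the 7 Bdnf promoters from 250 bases before to 50 bases after the start. It was present in 568 of 32851 promoters (1.73%), and in none of the 2 Ntf3, 1 Ntrk2 and 1 Ngfr promoters. The 150 bases before each of these 2 starts are shown with the match in capitals, 78 bases before the start at position 109674700 and 38 bases before the start at position 109692436. A match describes the letters and is not evidence of binding. The pattern was not shown to be chosen apart from the Bdnf letters, so 2 of 7 beside 1.73% is no test of enrichment.
Bdnf chr2:109674550-109674699 plus strand: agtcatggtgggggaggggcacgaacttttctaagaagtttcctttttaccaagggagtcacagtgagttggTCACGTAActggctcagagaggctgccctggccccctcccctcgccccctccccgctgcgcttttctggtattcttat
Bdnf chr2:109692286-109692435 plus strand: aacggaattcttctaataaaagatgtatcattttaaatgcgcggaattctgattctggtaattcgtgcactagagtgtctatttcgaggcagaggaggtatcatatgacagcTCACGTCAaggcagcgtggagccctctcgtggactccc

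An antisense gene, Gm45346, covers 896 exon bases (14.4%) of Bdnf, and whether counting used strand was not stated, so reads of the 2 genes may not be separated. Ntf3 lies at chr6:126101412-126166910 on the minus strand, Ntrk2 at chr13:58806569-59133970 on the plus strand, Ntrk3 at chr7:78175959-78738012 on the minus strand and Ngfr at chr11:95568818-95587735 on the minus strand. No exon of another annotated gene overlaps the exons of these 4 genes. Ntrk2 and Ntrk3 span 327402 and 562054 bases, against 52308 for Bdnf, 65499 for Ntf3 and 18918 for Ngfr.

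In SAL-SAL animals the receptors Ntrk2 and Ntrk3 were the abundant members of the family, and both ligands were highest in hippocampus. Levels between genes are compared per length, as the median CPM per kilobase of merged exons. On this scale hippocampus had 45.5 for Ntrk3, 35.8 for Ntrk2, 20.5 for Ntf3 and 8.13 for Bdnf. PFC had 54.5 for Ntrk2, 30.6 for Ntrk3, 1.74 for Bdnf and 0.679 for Ntf3. The pair of Trk receptors headed the order in both regions, with the ligands nearest to them in hippocampus. The order in striatum was Ntrk2 at 42.3, Ntrk3 at 36.3, Ntf3 at 0.477 and Bdnf at 0.336. Hypothalamus had 15.7 for Ntrk2, 4.46 for Ntrk3, 1.73 for Bdnf, 0.858 for Ngfr and 0 for Ntf3. On this exon scale Ngfr was lowest or next to lowest in the forebrain regions, at 0 in hippocampus, 0.102 in PFC and 0.394 in striatum. The order of the others depended on the scale. Per 100 kb of gene span the Trk receptors still came first, but Bdnf exceeded Ntf3 in hippocampus (96.6 against 53.6) and striatum (3.99 against 1.25). Striatal Ngfr, at 7.17, then lay above both ligands.

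**Figure D1:**
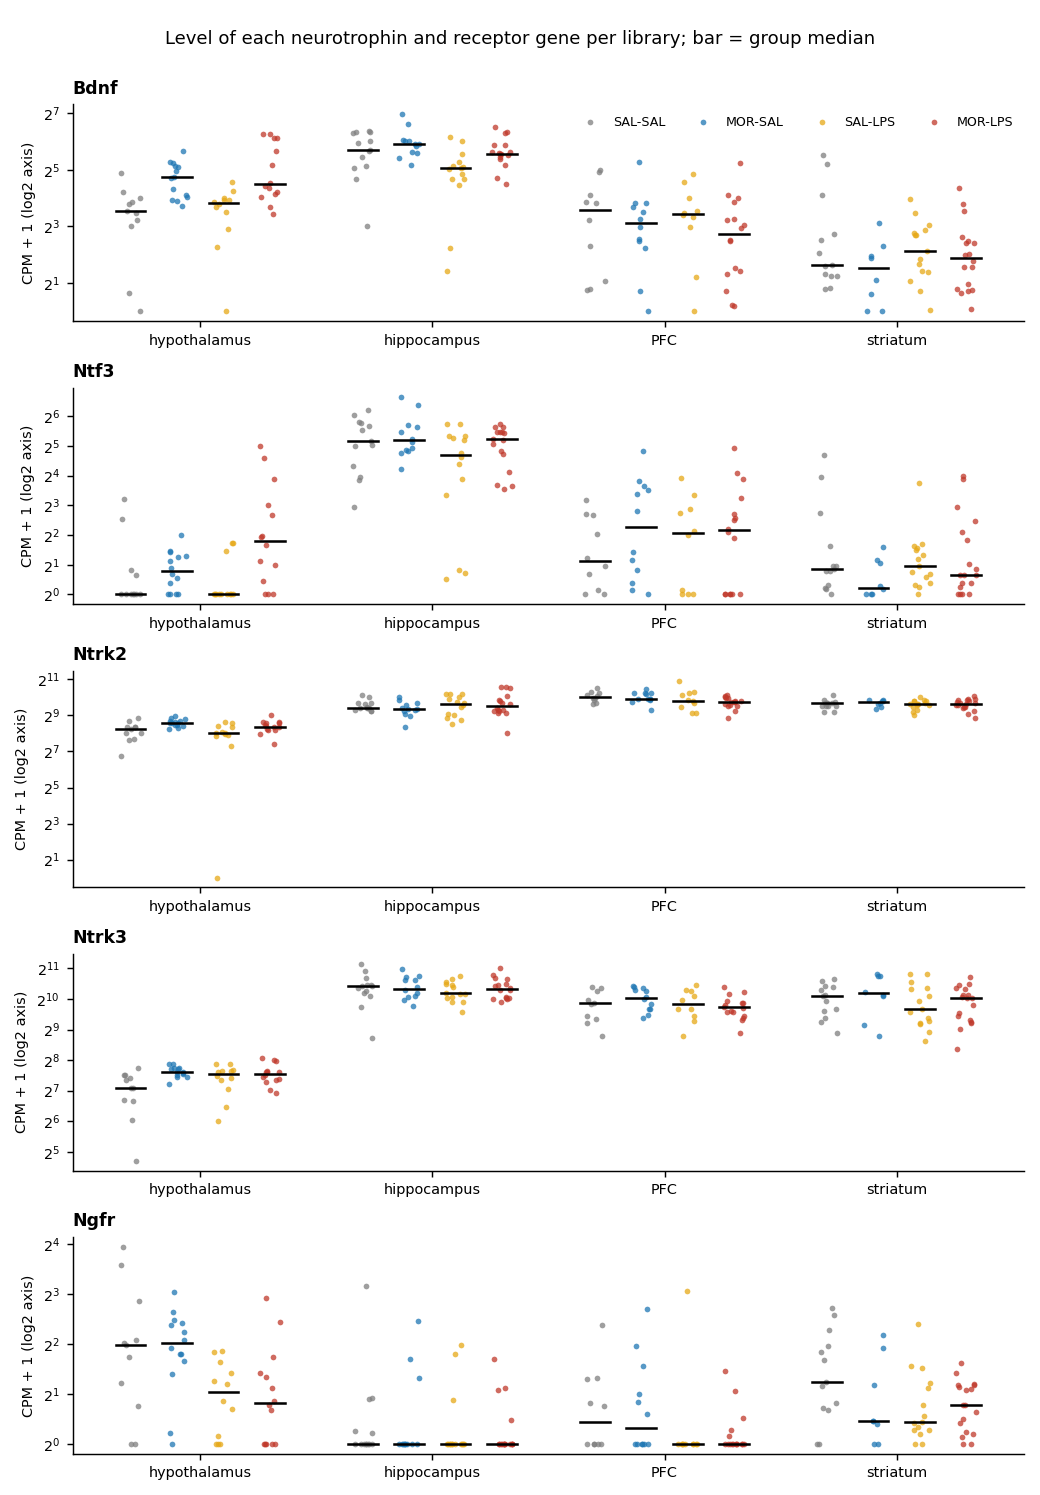
Deposited CPM of each member, plotted as CPM + 1 on a log2 axis, in every library of the 4 regions, separated by condition, with a bar at each group's median. Bdnf and Ntf3 are highest in hippocampus, Ntrk2 and Ntrk3 are far above both in the 3 forebrain regions, and Ngfr is near 0 in most libraries.

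The ligands separated hippocampus from the other forebrain regions. Bdnf had lowest, median and highest SAL-SAL levels of 7.00, 50.5 and 81.3 CPM in hippocampus, against 0.673, 10.8 and 30.5 in PFC and 0.749, 2.09 and 45.2 in striatum. It was lower in PFC by a log2 fold change (log2FC) of -2.06 ± 0.60 (SE, adjusted p = 0.0191) and lower in striatum by -2.56 ± 0.56 (adjusted p = 0.00174), in edgeR's quasi-likelihood test with Benjamini-Hochberg adjustment over all genes. PFC and striatum overlapped and did not pass the test (log2FC -0.50 ± 0.56, adjusted p = 0.753). Ntf3 had 6.73, 35.1 and 72.9 CPM in hippocampus, and medians of 1.16 in PFC and 0.817 in striatum. Its log2FC was -3.65 ± 0.90 for PFC (adjusted p = 0.00547) and -3.25 ± 0.78 for striatum (adjusted p = 0.00505).

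Between PFC and hippocampus 3 of 5 members passed the test (9.98% of 27637 genes did), between striatum and hippocampus 2 (7.59%) and between striatum and PFC 1 (9.31%). The member not named above was Ntrk2, which was higher in PFC than in hippocampus (log2FC 0.72 ± 0.19, adjusted p = 0.0106) and lower in striatum than in PFC (-0.60 ± 0.19, adjusted p = 0.0378). SAL-SAL Ntrk2 ran from 778 over a median of 1051 to 1455 CPM in PFC, 601, 690 and 1135 in hippocampus and 585, 816 and 1142 in striatum. Ntrk3 did not separate the forebrain regions, with adjusted p of 0.621 to 1. Its SAL-SAL levels were 419, 1372 and 2279 CPM in hippocampus, 472, 1096 and 1619 in striatum and 443, 925 and 1355 in PFC. All 3 ranges overlapped.

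These calls for PFC were lost without the libraries whose markers went against their region, which leaves 3 of 10 SAL-SAL libraries there. Without them the PFC to hippocampus comparison called 0 members, with log2FC -1.47 for Bdnf (adjusted p = 0.236), -3.87 for Ntf3 (adjusted p = 0.0964) and 0.81 for Ntrk2 (adjusted p = 0.178). All 3 had an unadjusted p under 0.05. DESeq2, run with those libraries in, called 3. With the animal as a block the same comparison called only Ntf3 of the 5 members, Bdnf having log2FC -1.91 (adjusted p = 0.0623) and Ntrk2 0.68 (adjusted p = 0.0589). Ntrk2 between striatum and PFC had log2FC -0.57 with the block (adjusted p = 0.128) and -0.53 without those libraries (adjusted p = 0.404). The hippocampal excess of Bdnf over striatum was called in all 6 alternatives and was larger without those libraries, at log2FC -4.14, and Bdnf was then also lower in striatum than in PFC (log2FC -2.67, adjusted p = 9.66e-04). Ngfr was then higher in striatum than in hippocampus (log2FC 3.83, adjusted p = 0.00338).

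Levels in hypothalamus cannot be set against the forebrain in the same way. In hippocampus, PFC and striatum, 3709, 3728 and 3694 genes are at 0 throughout although their hypothalamic mean exceeds 1 CPM. Genes spanning 200 kb or more had median log2 ratios to hypothalamus of 1.57 to 1.85, genes under 10 kb -0.701 to -0.455, and the ratio of striatum to hippocampus 0.158 and -0.179. Biology and counting therefore cannot be told apart in a hypothalamic comparison, and Ntrk2 and Ntrk3 are long genes. With that limit, 4 of 5 members were called higher in hippocampus than in hypothalamus (52.8% of genes were called), 2 in PFC (54.1%) and 2 in striatum (51.5%). The log2FC of Ntrk3 was 3.65, 3.35 and 3.35 for hippocampus, PFC and striatum, that of Ntrk2 1.603, 2.32 and 1.72. Bdnf, which is not a long gene, was higher in hippocampus than in hypothalamus (log2FC 2.32 ± 0.59, adjusted p = 7.45e-04) and did not differ by the test from hypothalamus in PFC (0.27 ± 0.59) or striatum (-0.24 ± 0.56). Without the libraries against their region it was lower in striatum than in hypothalamus (log2FC -1.79, adjusted p = 1.90e-04). Ngfr was lower in hippocampus (log2FC -4.64, adjusted p = 0.00391) and PFC (-3.01, adjusted p = 0.0417) than in hypothalamus with the animal as a block, and was not called without it (-1.997, adjusted p = 0.0924, and -1.50, adjusted p = 0.274).

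Within regions, 1 member passed the test in 1 planned condition comparison: Bdnf was higher in hypothalamus of MOR-LPS than of SAL-LPS animals. The fit held all libraries of a region, the 4 conditions and sex. In hypothalamus MOR-LPS against SAL-LPS called 1 of 5 members (1.03% of 28859 genes), while MOR-SAL against SAL-SAL called 0 (1.44%), SAL-LPS against SAL-SAL 0 (0.246%), MOR-LPS against MOR-SAL 0 (6.27%) and the interaction of morphine and LPS 0 (3.8%). Unadjusted p was under 0.05 for 2, 1, 1 and 2 members in those 4, beside 4994, 4038, 5926 and 4516 of all 28859 genes, and DESeq2 also called 0. The share of all genes called in MOR-LPS against SAL-LPS depended on single libraries. It stood for 298 genes, against 2 without the MOR-LPS library of animal 6-0 and 324 without that of animal 18-1.

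In hippocampus 0 of 5 members were called by edgeR in MOR-SAL against SAL-SAL (0.0% of 22076 genes), MOR-LPS against SAL-LPS (2.73%), SAL-LPS against SAL-SAL (2.55%), MOR-LPS against MOR-SAL (0.467%) and the interaction (2.35%). Unadjusted p was under 0.05 for Bdnf alone, in SAL-LPS against SAL-SAL. PFC also had 0 members in the same order of comparisons (0.0%, 0.0046%, 0.0%, 0.0184% and 1.78% of 21729 genes), with none at an unadjusted p under 0.05. Striatum had 0 as well (0.0%, 0.0%, 0.0128%, 1.39% and 0.00854% of 23426 genes), with Ntf3 alone under an unadjusted 0.05, in MOR-SAL against SAL-SAL. DESeq2 called 0 in all of these, and 0 were called in the 3 regions without the libraries whose markers went against them. Males and females differed in 0 members in hypothalamus (3.45%), hippocampus (2.51%), PFC (0.709%) and striatum (0.841%), by edgeR and with none under an unadjusted 0.05. A test of whether the LPS response of saline-exposed animals differed between regions called 0 members (5.22% of 32841 genes), with unadjusted p of 0.272 to 0.961. limma-voom with the animal as a block called 0 too.

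**Figure D2:**
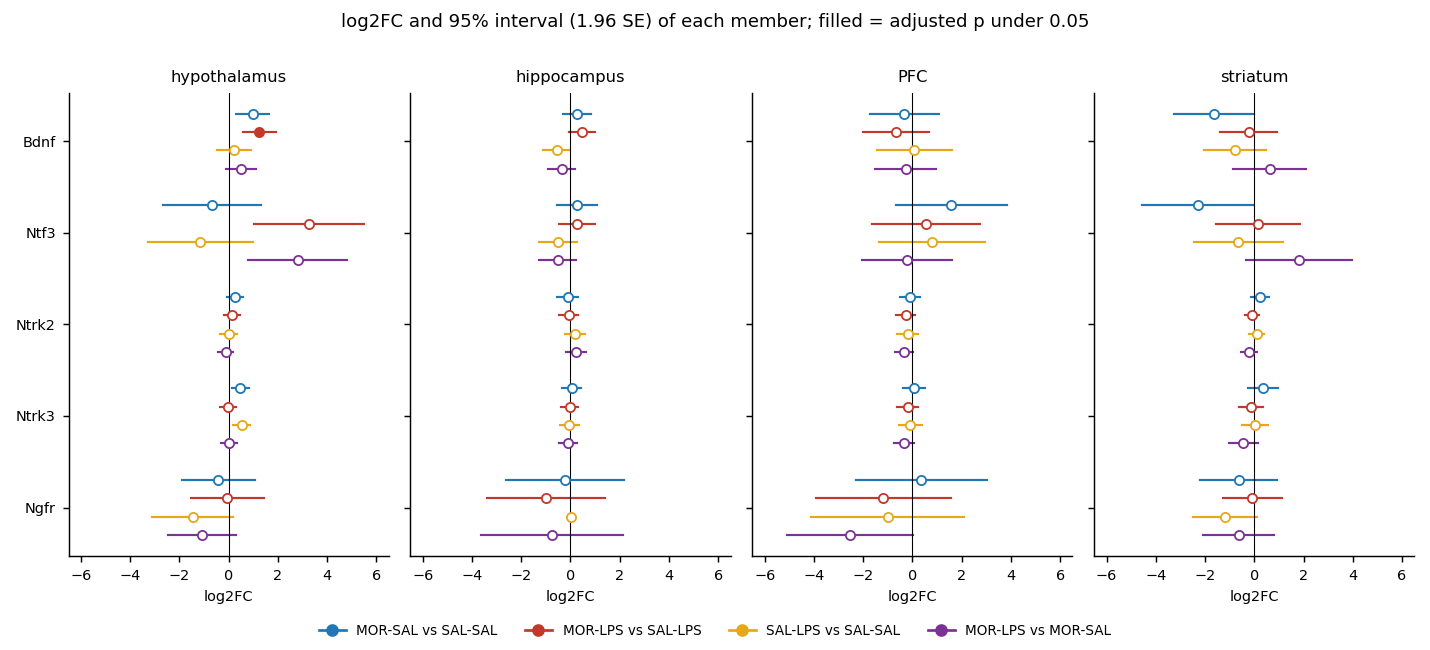
Log2FC of each member in 4 condition comparisons within each region, with 95% intervals, filled where the adjusted p is below 0.05 (edgeR). The filled point is Bdnf in hypothalamus in MOR-LPS against SAL-LPS. The interval of Ngfr in hippocampus for SAL-LPS against SAL-SAL could not be computed and is not drawn.

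Hypothalamic Bdnf was the member called between morphine- and saline-exposed animals, near the threshold and in LPS-treated animals alone of the planned comparisons. Its lowest, median and highest levels were 0, 10.8 and 28.6 CPM in SAL-SAL and 12.1, 25.5 and 49.9 in MOR-SAL animals. They were 0, 13.2 and 22.8 in SAL-LPS and 9.89, 21.3 and 76.3 in MOR-LPS animals. Both values of 0 came from low-depth libraries, with total counts of 160755 and 7673. Without low-depth libraries the lowest were 7.08 CPM in SAL-SAL and 3.88 in SAL-LPS. The groups overlapped, but 12 of 14 MOR-LPS libraries lay above the SAL-LPS median and 6 above its highest library. All 14 MOR-SAL libraries lay above the SAL-SAL median, 6 of them above its highest, and all 6 were females. MOR-LPS exceeded SAL-LPS by a log2FC of 1.26 ± 0.34 (95% interval 0.60 to 1.92, adjusted p = 0.0474 by edgeR's quasi-likelihood test). MOR-SAL exceeded SAL-SAL by 0.97 ± 0.34, which did not pass (adjusted p = 0.101). It passed in 0 of 15 alternatives (adjusted p = 0.0590 to 0.906), with a log2FC of 1.32 in females alone and 0.34 in males alone.

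For the challenge itself Bdnf had a log2FC of 0.23 ± 0.35 for SAL-LPS against SAL-SAL (adjusted p = 0.893) and 0.51 ± 0.32 for MOR-LPS against MOR-SAL (adjusted p = 0.383). The interaction was 0.28 ± 0.47 (95% interval -0.65 to 1.21, adjusted p = 0.904), so the morphine difference was not shown to depend on the challenge. Averaging it over saline and LPS, a contrast added after the values were seen, gave 1.12 ± 0.23 (adjusted p = 0.0170), and 1 of 5 members was called (2.3% of genes). That contrast was called in 11 of 15 alternatives (adjusted p = 0.00564 to 0.214) and in each of 26 fits that left out 1 MOR-LPS or SAL-LPS library and 15 that left out the animals sharing a first label number. The SAL-SAL and MOR-SAL libraries were not left out one at a time.

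The MOR-LPS call was near the threshold. It was made in 6 of 15 alternatives (log2FC 0.58 to 1.82, adjusted p = 0.0155 to 0.631), and leaving out a single library of either group kept it in 6 of 26 fits, with log2FC 1.15 to 1.35 in all 26 (adjusted p = 0.0416 to 0.0729). Leaving out the animals sharing a first label number kept it in 1 of 15 fits (log2FC 1.043 to 1.497, adjusted p = 0.0481 to 0.114). With a correlation within that number, which never holds both perinatal exposures, limma-voom gave 1.02 (adjusted p = 0.114). Without the 3 low-depth libraries, all from saline-exposed animals, it was 1.24 (adjusted p = 0.0521), and with edgeR's stricter filter on low counts 1.26 (adjusted p = 0.200). Summed astrocyte markers, which NeuN sorting should remove, had medians of 31.4 CPM in SAL-SAL, 42.0 in MOR-SAL, 42.5 in SAL-LPS and 287 in MOR-LPS, with a MOR-LPS range of 19.0 to 987. Dentate granule cell markers had medians of 108, 157, 105 and 127 CPM. With the medium spiny neuron, dentate, cortical and thalamic marker scores as covariates the MOR-LPS log2FC was 1.09 (adjusted p = 0.0778). These scores hold no astrocyte markers. The fit with the astrocyte and oligodendrocyte scores was among the alternatives that made the call.

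Splitting hypothalamic Bdnf by sex, after its values had been seen, showed opposite directions of the LPS comparison in morphine-exposed animals. MOR-SAL females had 25.6, 33.9 and 49.9 CPM as lowest, median and highest and MOR-LPS females 9.89, 17.4 and 35.3. MOR-SAL males had 12.1, 15.3 and 25.4 CPM and MOR-LPS males 16.8, 69.1 and 76.3. Of the 7 MOR-LPS females, 6 lay below the lowest MOR-SAL female, and of the 7 MOR-LPS males, 5 lay above the highest MOR-SAL male. In a fit of 8 condition by sex groups the log2FC of MOR-LPS against MOR-SAL was 1.76 ± 0.38 in males (adjusted p = 0.0107) and -0.76 ± 0.37 in females (adjusted p = 0.295). The difference between the sexes was 2.52 ± 0.53 (adjusted p = 0.0384, edgeR), and 1 of 5 members was called (0.0347% of 28859 genes, 10 in all). Male minus female differences of all members, regions and comparisons were examined, and this and the hippocampal Ntrk2 difference given below were the ones called.

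**Figure D3:**
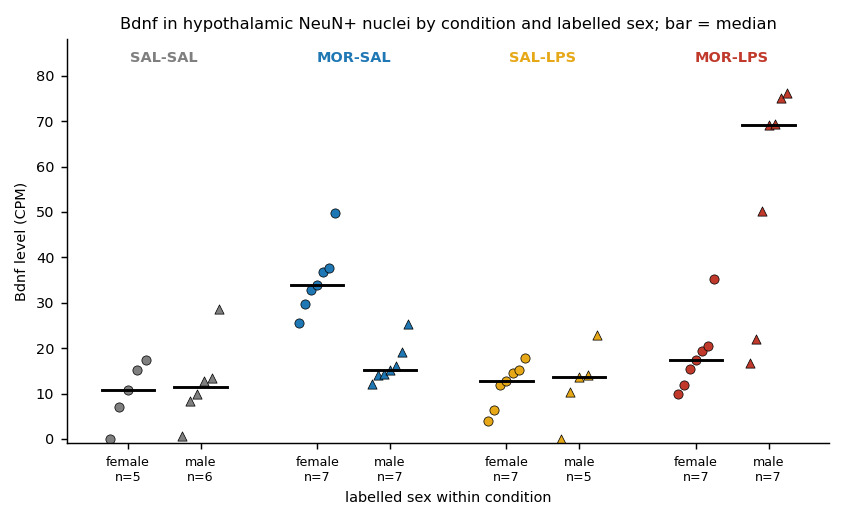
Bdnf CPM in every hypothalamic library by condition and labelled sex, with a bar at each median. MOR-SAL females lie above MOR-SAL males, and in MOR-LPS animals 5 of 7 males lie above the highest MOR-SAL male while 6 of 7 females lie below the lowest MOR-SAL female.

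The size of the Bdnf sex difference ranged from 2.36 to 2.63 over 11 alternatives (adjusted p = 0.00182 to 0.081), and 9 called it. It was 2.61 (adjusted p = 0.0506) without the libraries whose Y-linked genes went against the label. Over 28 fits that each left out 1 library it was 2.41 to 2.77, called in 10 (adjusted p = 0.00894 to 0.0915). Animals that share the first number of their label were nearly always of 1 sex (17 of 18 numbers), but most numbers of morphine-exposed animals held both MOR-SAL and MOR-LPS. Mean Bdnf CPM was lower in MOR-LPS than in MOR-SAL animals in 4 of 4 such numbers of females, and higher in 4 of 5 of males, the exception being 16.8 against 19.2. With the number as a block the difference between the sexes was 2.58 ± 0.56 (adjusted p = 0.00182). Among MOR-LPS animals, astrocyte markers had medians of 483 CPM in females and 87.6 in males, and dentate markers 116 in females and 223 in males. With the medium spiny neuron, dentate, cortical and thalamic scores as 4 covariates the difference was 2.50 (adjusted p = 0.0112). These scores hold no astrocyte markers. The difference was also called with the astrocyte and oligodendrocyte scores as covariates. Of the 10 genes called in this test, Bdnf, Grm2, Epha7, Hpdl and Gm26619 differed in one direction and Nwd1, Tmem119, Sox2ot, Agt and Gabrr2 in the other.

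Bdnf in the forebrain regions did not pass the test in any condition comparison. In hippocampus its lowest, median and highest levels were 7.00, 50.5 and 81.3 CPM in SAL-SAL, 35.1, 58.9 and 123 in MOR-SAL, 1.68, 32.1 and 70.3 in SAL-LPS and 21.8, 46.4 and 89.5 in MOR-LPS. The highest MOR-SAL and MOR-LPS values came from low-depth libraries. SAL-LPS was lower than SAL-SAL by a log2FC of -0.57 ± 0.28 (adjusted p = 0.272), with 2 of 14 libraries above the SAL-SAL median. This group held 5 of the 7 hippocampal libraries with striatal markers, and without the 7 the log2FC was -0.33 (adjusted p = 0.425). In PFC the medians were 10.8, 7.74, 9.84 and 5.71 CPM in the same order, and single libraries ran from 0 to 37.9. In striatum they were 2.09, 1.90, 3.41 and 2.69 CPM with libraries from 0 to 45.2, and MOR-SAL against SAL-SAL gave -1.64 ± 0.83 (adjusted p = 0.444).

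Ntf3 was a low gene outside hippocampus. In hypothalamus it was at 0 in 7 of 11 SAL-SAL, 4 of 14 MOR-SAL, 9 of 12 SAL-LPS and 3 of 14 MOR-LPS libraries, with highest values of 8.36, 3.03, 2.35 and 31.2 CPM. A count of 0 at the median hypothalamic depth of 5543589 allows up to 0.541 CPM (3 counts), so a zero is not absence. MOR-LPS exceeded SAL-LPS by log2FC 3.28 ± 1.14 (adjusted p = 0.125) and MOR-SAL by 2.80 ± 1.03 (adjusted p = 0.0854). Both missed the threshold, with 7 of 14 MOR-LPS libraries above the highest SAL-LPS library and 5 above the highest MOR-SAL library. The second comparison was called in 2 of 16 alternatives, without a sex term (2.92, adjusted p = 0.0360) and in males alone (4.87, adjusted p = 0.0473). MOR-LPS males had a median of 7.10 CPM and MOR-LPS females 1.19, and the male minus female difference of this comparison was 4.36 ± 1.80 (adjusted p = 0.260).

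Hippocampal Ntf3 had medians of 35.1 and 35.4 CPM in SAL-SAL and MOR-SAL animals and of 24.7 and 36.3 in SAL-LPS and MOR-LPS animals. Its libraries ran from 0.449 to 97.8 CPM, and log2FC between conditions lay between -0.53 and 0.26. PFC had medians of 1.16, 3.82, 3.21 and 3.47 CPM with 12 of 48 libraries at 0, and striatum 0.817, 0.166, 0.929 and 0.561. Striatal MOR-SAL was lower than SAL-SAL by a log2FC of -2.30 ± 1.15 (adjusted p = 0.435). The SAL-SAL group there held libraries up to 24.97 CPM, against 2.05 in MOR-SAL, and without the striatal libraries with cortical markers the log2FC was -0.49 (adjusted p = 0.939).

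Ntrk2 passed the test in no condition comparison with both sexes in the fit. Its medians in SAL-SAL and MOR-SAL animals were 303 and 385 CPM in hypothalamus, 690 and 666 in hippocampus, 1051 and 974 in PFC and 816 and 852 in striatum. In the SAL-LPS and MOR-LPS groups they were 255 and 332, 793 and 733, 901 and 866, and 803 and 807 CPM, in the same order of regions. The pairwise log2FC largest in size was that of MOR-LPS against MOR-SAL in PFC, -0.36 ± 0.19 (95% interval -0.72 to 0.01, adjusted p = 0.409).

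A sex split of hippocampal Ntrk2, also made after its values had been seen, gave opposite directions for morphine in LPS-challenged animals. SAL-LPS females had 546, 836 and 1174 CPM and MOR-LPS females 258, 602 and 938. SAL-LPS males had 364, 492 and 1180 CPM and MOR-LPS males 636, 985 and 1544. Of the MOR-LPS animals, 7 of 8 females lay below the SAL-LPS female median and 8 of 8 males above the SAL-LPS male median. Neither sex passed the test alone (log2FC -0.71 in females, adjusted p = 0.128, and 0.63 in males, adjusted p = 0.192). The difference between them was 1.34 ± 0.37 (adjusted p = 0.0426, edgeR), and 1 of 5 members was called (2.41% of 22076 genes).

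This Ntrk2 difference kept its direction but was called in 6 of 11 alternatives (1.03 to 1.61, adjusted p = 0.0237 to 0.0771) and in 13 of 30 fits that left out 1 library (1.22 to 1.64, adjusted p = 0.0153 to 0.0802). Without the libraries with markers against the region it was 1.61 (adjusted p = 0.0506). Dentate granule cell markers moved the opposite way in the same groups, with medians of 173 CPM in SAL-LPS females, 364 in MOR-LPS females, 338 in SAL-LPS males and 207 in MOR-LPS males. With 4 marker lists as covariates, dentate granule cells among them, the difference was 1.03 ± 0.26 (adjusted p = 0.0432).

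Ntrk3 also passed in no condition comparison, and its pairwise log2FC were largest in hypothalamus, up to 0.53. Its hypothalamic lowest, median and highest levels were 25.1, 134 and 213 CPM in SAL-SAL, 148, 193 and 235 in MOR-SAL, 63.7, 186 and 234 in SAL-LPS and 121, 188 and 269 in MOR-LPS. The SAL-SAL group was lowest, and all 14 MOR-SAL libraries lay above its median. MOR-SAL against SAL-SAL gave 0.49 ± 0.17 (adjusted p = 0.105) and SAL-LPS against SAL-SAL 0.53 ± 0.18 (adjusted p = 0.123), and the interaction was -0.51 ± 0.24 (adjusted p = 0.269). In males alone these were 0.42, -0.020 and 0.048, and in females alone 0.57, 0.92 and -0.87. None passed in any alternative, and the SAL-SAL group held 2 of the 3 low-depth libraries. Medians in the same order were 1372, 1289, 1164 and 1286 CPM in hippocampus, 925, 1042, 914 and 845 in PFC and 1096, 1166, 823 and 1046 in striatum.

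Ngfr was close to the detection limit. It was at 0 in 40 of 55 hippocampal, 31 of 48 PFC, 11 of 51 hypothalamic and 8 of 54 striatal libraries. Group medians were highest in hypothalamus, at 2.96 CPM in SAL-SAL, 3.03 in MOR-SAL, 1.07 in SAL-LPS and 0.773 in MOR-LPS, with highest libraries of 14.4, 7.22, 2.63 and 6.60. The medians of both LPS groups lay below those of the saline groups, but SAL-LPS against SAL-SAL gave log2FC -1.45 ± 0.84 (adjusted p = 0.465) and MOR-LPS against MOR-SAL -1.08 ± 0.71 (adjusted p = 0.419). Cholinergic markers (Chat, Slc5a7, Slc18a3 and Lhx8) summed to medians of 4.34 CPM in hypothalamus, 2.42 in hippocampus, 17.8 in PFC and 41.0 in striatum.

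The wider neurotrophin pathway was followed with a list of 95 genes, 94 of them in the tables. It held other ligand and receptor genes, processing and sorting proteins, adaptors, kinases, transcription factors at Bdnf promoters, activity-induced targets and negative regulators. In hypothalamus 94 were tested. MOR-SAL against SAL-SAL called 3 (3.19% of the list against 1.44% of all genes), all lower, among them the adaptor genes Shc3 (log2FC -1.29 ± 0.31, adjusted p = 0.0196) and Irs2 (-0.70 ± 0.18, adjusted p = 0.0324). Shc3 was called in 10 of 15 alternatives (adjusted p = 0.0036 to 0.515) and Irs2 in 8 of 15 (adjusted p = 0.00607 to 0.765). The list's median log2FC was -0.02, beside 0.07 over all genes. MOR-LPS against SAL-LPS called 2 (2.13% against 1.03%), both higher: Sort1, a sorting receptor for neurotrophin precursors (0.74 ± 0.17, adjusted p = 0.0346), and the calcium-dependent kinase gene Camk2a (1.12 ± 0.28, adjusted p = 0.0414). The list's median was 0.12, beside 0.01. Astrocyte markers were also higher in MOR-LPS, as given above for Bdnf. With astrocyte and oligodendrocyte scores as covariates Sort1 had 0.75 (adjusted p = 0.0294) and Camk2a 0.83 (adjusted p = 0.106), and neither was called with the stricter filter (adjusted p = 0.0827 and 0.177) or the 4 neuronal and thalamic marker scores (adjusted p = 0.168 and 0.272).

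In morphine-exposed animals the hypothalamic LPS comparison called 7 list genes, all higher, which is 7.45% of the list against 6.27% of all genes. They included Plat (1.28 ± 0.27, adjusted p = 0.00250), which encodes a protease that activates the plasmin system cleaving proBDNF, Camk2a (1.25 ± 0.27, adjusted p = 0.00337) and Sort1 (0.64 ± 0.16, adjusted p = 0.0115). With the 2 glial scores as covariates none of these 7 was called, Plat having 0.51 (adjusted p = 0.405), Camk2a 0.72 (adjusted p = 0.178) and Sort1 0.65 (adjusted p = 0.0578). SAL-LPS against SAL-SAL called 0 of 94 by edgeR, with 12 under an unadjusted 0.05, beside 4038 of 28859 genes. The interaction called 4 (4.26% against 3.8%), all higher, led by Sort1 (1.31 ± 0.24, adjusted p = 0.00229), Camk2a (1.43 ± 0.39, adjusted p = 0.0248) and Plat (1.41 ± 0.40, adjusted p = 0.0293). The stricter filter left 1 of these 4, Sort1 (1.35, adjusted p = 0.00412). The averaged morphine contrast that called Bdnf called 0 of the 94, with 20 under an unadjusted 0.05, beside 4045 of the 28859 genes. Exons of Sort1 and Irs2 overlap a gene on the opposite strand over 4.47% and 2.56% of their length, as do those of Gab1 (5.23%) and Camk4 (2.21%), and Rps6ka5 overlaps a gene on its own strand over 1.5%.

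Outside hypothalamus few list genes were called. Hippocampus had 93 tested genes and called Camk4, a kinase that acts on CREB, lower in MOR-LPS than in SAL-LPS (log2FC -0.87 ± 0.25, adjusted p = 0.0445) and the kinase gene Rps6ka5 higher in SAL-LPS than in SAL-SAL (1.11 ± 0.21, adjusted p = 0.0265). Each was 1.08% of the list, against 2.73% and 2.55% of all genes. Libraries with striatal markers made up 5 of 14 in SAL-LPS, 1 of 13 in SAL-SAL and 1 of 16 in MOR-LPS, and without them Camk4 had -0.12 (adjusted p = 0.864) and Rps6ka5 0.71 (adjusted p = 0.0658), so neither was called. PFC and striatum called 0 of 93 and 0 of 92 in every condition comparison by edgeR, with 2 to 10 and 4 to 13 genes under an unadjusted 0.05. Between the sexes the adaptor gene Gab1 was lower in males in hypothalamus (-1.64 ± 0.38, adjusted p = 0.00857), hippocampus (-0.96 ± 0.24, adjusted p = 0.0212) and striatum (-1.45 ± 0.31, adjusted p = 0.0143). Vgf, which encodes a secreted neuropeptide precursor induced by neurotrophins, was higher in hypothalamus of males (0.63 ± 0.19, adjusted p = 0.0467). Vgf was called in 3 of 8 alternatives (adjusted p = 0.00227 to 0.181). Gab1 was called in 7 of 8 in hypothalamus, 8 of 9 in hippocampus and 6 of 7 in striatum. No other list gene was called between the sexes, beside 3.45%, 2.51% and 0.841% of all genes in these 3 regions.

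The members also varied between libraries of the same condition and sex, and over all libraries that of Ntf3, Ntrk2 and Bdnf followed markers of neuron types in some regions. After condition and sex means were removed from log2(CPM + 1), Ntf3 in hippocampus rose with dentate granule cell markers (r = 0.79, rho = 0.763, n = 55, permutation test, adjusted p = 4.43e-05 for r). Ntrk2 fell with the same markers (r = -0.745, rho = -0.773, n = 55, permutation test, adjusted p = 4.43e-05). This is the adjusted value of the smallest p, 1e-05, that 100000 permutations can give. Both relations held without the 2 libraries farthest from the median of the markers (r = 0.772 and -0.748) and within the 48 libraries without striatal markers (r = 0.738 and -0.723), and in the other 7 r was 0.831 and -0.724, or 0.385 and -0.929 without the 2 farthest of them. Ntrk3 had no such relation (r = 0.133, rho = 0.0452, permutation test, adjusted p = 0.392). These lists were chosen after the data had been seen, in a family of 31 relations.

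Bdnf followed cortical and striatal neuron markers over all libraries, but not on both sides of the split by markers. In PFC it rose with cortical projection neuron markers (r = 0.708, rho = 0.697, n = 48, permutation test, adjusted p = 4.43e-05), with r = 0.649 in the 39 libraries with striatal markers above cortical ones and -0.275 in the other 9. In striatum it fell with medium spiny neuron markers (r = -0.739, rho = -0.757, n = 54, permutation test, adjusted p = 4.43e-05). There r was -0.60 in the 45 libraries with striatal markers above cortical ones and 0.203 in the other 9. In hippocampus Bdnf rose with dentate markers over all libraries (r = 0.58, rho = 0.515, n = 55, permutation test, adjusted p = 7.75e-05). Within the 48 libraries without striatal markers r was 0.291 (rho = 0.297, permutation test, adjusted p = 0.0682). Only striatum of the 4 regions called a relation of Bdnf with the immediate early list (Fos, Fosb, Junb, Arc, Egr1, Egr3, Npas4 and Nr4a1) that held without 2 libraries. It was inverse, at r = -0.378 (rho = -0.406, n = 54, permutation test, adjusted p = 0.015 in a family of 8), and r was -0.331 in the 45 libraries with striatal markers above cortical ones and 0.509 in the other 9.

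In hypothalamus the relation of Bdnf with immediate early genes was r = 0.392 over 51 libraries (rho = 0.205, permutation test, adjusted p = 0.015 for r and 0.194 for rho). It rested on the low-depth libraries, and was r = 0.00798 over the 48 others (permutation test, adjusted p = 0.957). Hippocampus and PFC gave r = -0.136 and 0.145. Ntrk2 is also expressed in astrocytes, mostly as its truncated form. Its r with astrocyte markers was 0.368 in hypothalamus (rho = 0.311, permutation test, adjusted p = 0.015 for r) and 0.256 without the low-depth libraries (permutation test, adjusted p = 0.155). In hippocampus, PFC and striatum it was -0.135, -0.133 and -0.367, so Ntrk2 did not rise with astrocyte markers in the forebrain regions.

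**Figure D4:**
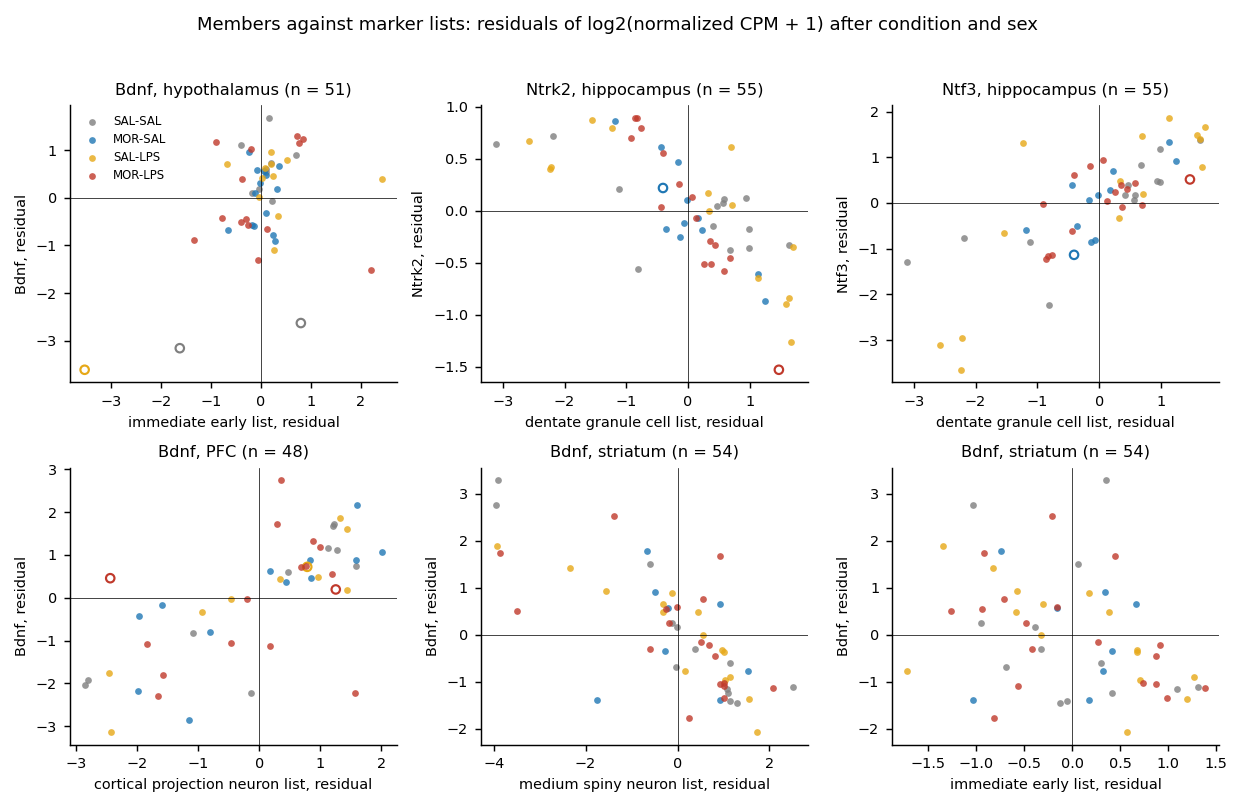
Residuals of a member, log2(CPM + 1) after condition and sex means, against the residuals of a summed marker list in 6 panels, 1 point per library, with low-depth libraries as open circles. In hippocampus Ntf3 rises (r = 0.79) and Ntrk2 falls (r = -0.745) with dentate granule cell markers. Bdnf falls with medium spiny neuron markers in striatum (r = -0.739), and its hypothalamic relation with immediate early genes rests on open circles far from the rest.

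The genes most like each member were taken as those with the highest mean, over the 4 regions, of the correlation across libraries, among 9846 or 9847 genes with a mean of at least 5 CPM in each region. They are a description without a test, since libraries share depth and tissue content. For Bdnf they were Grm2 (mean r = 0.708, with 0.655 to 0.769 in the regions), Syt17 (0.681) and Sphkap (0.678). Ntf3 had Dnah9 (0.712), Nrp2 (0.646) and Sphkap again (0.637). The receptors had closer partners, Ntrk2 with Ptprn2 (0.774), Arhgap26 (0.739) and Csmd1 (0.736), and Ntrk3 with Cacna1e (0.841), Dlgap2 (0.838) and Trerf1 (0.836). For Ngfr no gene exceeded 0.404, the value of Kat7, followed by Tubb5 (0.403) and Coa5 (0.401).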

How the data were processed

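RNA-seq of NeuN+ nuclei was analysed in 208 mouse libraries. Per the labels' processing notes, the submitters' tools were Trim Galore 0.6.7, STAR 2.7.10a, HTSeq 0.12.4 and DESeq2 1.40.2, on mm10. The authors deposited raw read counts per gene and CPM, counts scaled to library totals, for each region. The deposited CPM tables leave out 37 mitochondrial genes. The study's methods name STAR's gene counting mode, which counts reads over annotated exons. Use of molecular identifiers and strand is not given in the sources used here, and gene-level counts hold all isoforms.

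Counts were fitted with edgeR 4.0.16 (R 4.3.3), separately for each region. TMM normalization, genes with a total count above 10, 4 conditions plus sex, the quasi-likelihood test and Benjamini-Hochberg adjustment over all genes were used, with a threshold of 0.05. SAL-SAL libraries of all regions were fitted together for region differences. Alternatives used DESeq2 1.42.0, limma 3.58.1, other filters, scalings and subsets, marker covariates and blocks. Correlations used log2(CPM + 1) and permutation tests (scipy 1.17.1). The fits were tested on simulated data. Each library is 1 animal, so p-values measure the spread between animals. Morphine was given through the dam, and of the 18 first numbers in the animal labels 8 held saline-exposed and 10 morphine-exposed animals and 0 both, so the spread between those numbers and perinatal exposure cannot be fully told apart. Limits for a count of 0 cover counting error only, and intervals of log2FC include the spread between animals.

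The members and lists were chosen with earlier results of these data known. Named genes are the 5 members everywhere, up to 3 called pathway genes per direction and comparison, and the 3 genes most correlated with each member. The shared animals pair the regions: deviations from group means of the same animal correlated on average at -0.00567 to 0.0558 between regions, and results with the animal as a block are given beside the region comparisons. Protein sequences and an Ntrk3 promoter were not used here. Values of some genes of the pathway list are not reported here.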

Additional observations from a re-analysis of the deposited data

Results flagged for a closer look

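Within groups of 4 to 10 libraries, a highest or lowest value far from the others was looked for in 15 member groups, and chance flags about 1 in 20 groups. In PFC of SAL-LPS animals, the highest Ntrk2 library had 1954 CPM and the next 1253 (n = 10). In the same group 1 library had 7.33 CPM of Ngfr and the other 9 had 0. In PFC of SAL-SAL animals the highest Ngfr library had 4.22 CPM and the next 1.49 (n = 10).

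Responses that differed between the sexes were found for 2 members, in comparisons picked after their values had been seen. The hypothalamic log2FC of Bdnf for MOR-LPS against MOR-SAL was higher in males than in females by 2.52 (adjusted p = 0.0384, edgeR). The hippocampal log2FC of Ntrk2 for MOR-LPS against SAL-LPS was higher in males by 1.34 (adjusted p = 0.0426, edgeR). Neither was tested in other animals.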

How the results depend on the processing

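Of 859 alternative values for 98 results, 733 kept their direction and their side of the threshold. In hypothalamus, Bdnf in MOR-LPS against SAL-LPS missed the threshold, leaving 0 members called, with edgeR's expression filter (log2FC 1.26), without low-depth libraries (1.24), in females (0.58) or males alone (1.602), with limma-voom and a correlation within leading label numbers (1.02), with limma on log2(CPM + 1) (1.49) or log2(CPM + 0.1) (1.82), without libraries against the labelled sex (1.198) and with 4 marker lists as covariates (1.09). Leaving out 1 library of these groups or 1 leading number gave 1.043 to 1.497. The averaged contrast of Bdnf missed it, again with 0 members, with the expression filter (1.10), in females (0.95) or males alone (0.97) and with log2(CPM + 0.1) (1.87). MOR-LPS against MOR-SAL called 1 member without a sex term (Ntf3) and 2 in males alone (Bdnf and Ntf3), and in PFC 1 (Ngfr) with glial marker covariates.

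The Bdnf sex difference missed the threshold without libraries against the labelled sex (2.61) and with limma-voom (2.46), and leaving out 1 library gave 2.41 to 2.77. That of Ntrk2 missed it with the expression filter (1.37), without low-depth libraries (1.26), without libraries against the labelled sex (1.35), with glial covariates (1.23) and without libraries against the region (1.61), with 1.22 to 1.64 over single libraries left out. Between regions, PFC against hippocampus called 0 members without libraries against the region and 1 with the animal as a replicate block, and striatum against PFC 0 with library-size scaling and 0 with the block. Without low-depth libraries the hypothalamic r was 0.00798 for Bdnf with immediate early genes, 0.256 for Ntrk2 with astrocyte markers, and -0.340 in place of 0.0268 for Bdnf with astrocyte markers. The hypothalamic pathway counts of 3, 2, 7 and 4 for MOR-SAL against SAL-SAL, MOR-LPS against SAL-LPS, MOR-LPS against MOR-SAL and the interaction were 3, 0, 7 and 1 with the expression filter, 0, 0, 5 and 2 with 4 marker lists and 6, 1, 1 and 4 with glial covariates. Apart from libraries left out, the cause of these changes was not tested.

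The leading number of the label, which the labels do not explain, gave a correlation over all genes of -0.0489 to 0.0288 in the regions. A value over all genes does not show that a single gene such as Bdnf shares nothing within a number. With the number as a replicate block 0 members were called in the LPS contrasts, which changed no call there. The Bdnf sex difference stayed called (2.58). Ngfr and, outside hippocampus, Ntf3 were at 0 in many libraries, which limits their comparisons. The part of depth in these zeros was not tested. In simulated counts for MOR-LPS against SAL-LPS, edgeR with the total-count filter used here called more unchanged genes, mostly of low CPM, than changed ones, and few unchanged genes with the expression filter. The shares of all genes called and adjusted p-values near the threshold are to be read with this in mind.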
